A study of Mus musculus with 54 samples.

Results

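The genes of oligodendrocytes and their myelin were followed through the day in the suprachiasmatic nucleus (SCN), the hypothalamic clock of mammals. The 9 were taken by name, Mbp, Mog, Mag, Mobp, Cnp, Mal, Cldn11, Olig1 and Sox10, and each matched 1 Ensembl row of a read count table of 30031 genes. All samples came from male C3H/HeH mice of 10 to 12 weeks, with no other genotype or treatment, so that the labels separate the groups only by the time of collection. The timepoints were ZT2, ZT6, ZT10, ZT14, ZT18 and ZT22, in hours after lights on in a 12:12 h light/dark cycle. Each timepoint had 3 biological replicates, A, B and C, and each replicate was Nissl-stained SCN cut out by laser from the brains of 5 mice, pooled, and amplified from about 1 ng of RNA before sequencing. A replicate is therefore a pool of animals, and its 3 sequencing lanes are 1 library here.

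Oligodendrocytes wrap axons in myelin, a compacted membrane that insulates them and speeds conduction. Myelin basic protein (Mbp) holds the inner faces of the membrane together, small basic proteins such as Mobp sit in the compact layers, and Cnp, Mag and Mog lie in the looser cytoplasmic, inner and outermost parts. Olig1 and Sox10 are transcription factors of the lineage: Sox10 binds DNA through an HMG box and drives myelin genes, and Olig1 is a basic helix-loop-helix factor of precursors and mature cells. In the hypothalamus these cells lie in and around fibre tracts such as the optic chiasm beneath the SCN, so a cut of the tissue can hold more or fewer of them. In a bulk sample, fewer cells of a type and less RNA per cell cannot be told apart, and if only the share of cells differed between libraries, the 9 genes would be expected to move together.

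The libraries held 15412981 to 35820945 counted reads, the fewest in ZT18 replicate C, and no pair of replicates agreed within sampling noise. In the study's principal component plot ZT2 and ZT22 libraries lie together, as do those of ZT6 and ZT10 and those of ZT14 and ZT18. The legend of that plot names timepoint and sequencing batch as what separates the libraries, but which library was in which batch, and whether the 3 sets are batches, is not given in the sources used here. From the timing of known clock genes the paper holds that effects of batch are minimal. It also reports high concordance of qPCR with the sequencing in these samples. If batch followed the sets, it and timepoint cannot be told apart between them, so that comparisons inside a set (ZT10 with ZT6, ZT18 with ZT14, ZT2 with ZT22) are kept separate below from those across sets. ZT6 and ZT10 also differ from the other timepoints in how the deposited tables relate to each other. There, 36.8% to 47.1% of genes had the same number of reads in the count table and in a second, normalized table, against 94.7% to 96.3% in the other 12 libraries, and the median gene had 7.9% to 9.28% more in the count table. For the oligodendrocyte genes the excess at ZT6 and ZT10 was 1.51% to 1.91% for Cnp, 10.7% to 16.8% for Mag and 4.5% to 21.5% for Mog. Fitted on the reads recovered from the normalized table, 2 further genes were called for ZT6 minus ZT2, Cnp and Cldn11 (adjusted p = 0.0393 and 0.0477, edgeR).

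Every one of the 9 genes was read in all 18 libraries, from 61 reads of Olig1 to 139828 of Mbp in a single library. The levels below are CPM, reads of a gene scaled to a common library total after TMM normalization. Per kilobase of exon, which allows genes to be compared, Mbp had the highest mean level (209 CPM per kb, SD 146 over the 18 libraries), followed by Cnp (68.2 ± 42), Mobp (42.2 ± 19.2), Cldn11 (24.5 ± 10.3), Mog (24.4 ± 11), Mal (15.4 ± 5.5), Olig1 (13.8 ± 9.04), Mag (7.65 ± 4.33) and Sox10 (3.04 ± 1.61). Mbp was above Cnp in 18 of 18 libraries and Mag above Sox10 in 17, while the neighbours between them changed places in 5 to 7 libraries. With the longest transcript in place of all exon bases, Mobp stood before Cnp.

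Upstream sequence was examined for 6 of the 9, the members with an entry in the RefSeq promoter table used here (build GRCm38.p6). The 250 bases before the start of Mobp and Mog, the pair that was lowest at ZT6 and ZT10, are shown with those of Cnp and Mag, which were not. The capitals mark ACAAAG on either strand (CTTTGT on the strand shown), the core that SOX factors bind. Mobp lies at chr9:120149492-120149741 on the plus strand, Mog at chr17:37023399-37023648 on the minus strand, Cnp at chr11:100574689-100574938 on the plus strand and Mag, at the start nearest to the annotated gene end of 3 listed, at chr7:30914864-30915113 on the minus strand.
Mobp: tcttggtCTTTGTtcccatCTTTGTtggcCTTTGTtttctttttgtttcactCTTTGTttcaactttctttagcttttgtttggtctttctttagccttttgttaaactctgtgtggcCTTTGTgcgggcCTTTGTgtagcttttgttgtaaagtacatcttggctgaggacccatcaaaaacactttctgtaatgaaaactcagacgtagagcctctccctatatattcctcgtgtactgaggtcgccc
Mog: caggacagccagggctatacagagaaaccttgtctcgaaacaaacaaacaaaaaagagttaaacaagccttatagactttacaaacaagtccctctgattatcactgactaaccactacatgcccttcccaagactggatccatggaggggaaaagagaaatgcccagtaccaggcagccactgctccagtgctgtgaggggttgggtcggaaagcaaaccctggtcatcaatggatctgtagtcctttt
Cnp: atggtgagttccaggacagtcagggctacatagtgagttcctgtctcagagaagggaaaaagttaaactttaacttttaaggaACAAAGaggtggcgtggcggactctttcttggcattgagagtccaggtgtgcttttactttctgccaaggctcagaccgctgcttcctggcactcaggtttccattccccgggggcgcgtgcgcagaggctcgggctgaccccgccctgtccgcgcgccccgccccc
Mag: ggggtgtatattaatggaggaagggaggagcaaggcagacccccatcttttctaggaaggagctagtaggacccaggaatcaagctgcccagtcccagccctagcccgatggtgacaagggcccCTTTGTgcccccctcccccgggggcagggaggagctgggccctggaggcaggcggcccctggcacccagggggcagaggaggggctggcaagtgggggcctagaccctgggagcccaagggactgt
The SOX core occurred 6 times in the Mobp window, once each in Cnp and Mag, and not in Mog, Mal or Cldn11. Among 32851 promoter windows of the same length, 5408 (16.5%) held it, and 1 window, that of Mobp, held it 6 times or more. The clock elements CACGTG, an E-box (in 6.02% of windows), and TTATGTAA, a D-box (in 0.819%), were in none of the 6 windows, which says only that these letters are not in these 250 bases.

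All 9 genes changed with time of day (edgeR quasi-likelihood test over the 6 timepoints, adjusted p from 0.000144 for Mog to 0.00444 for Sox10). Of the 18941 genes tested, 44.0% changed, so that a changed gene was common in these libraries. The timepoint with the highest mean exceeded the lowest by 2.55-fold for Mal to 6.79-fold for Olig1. The order of the timepoints was not the same from gene to gene, as the values in each library show.

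**Figure D1:**
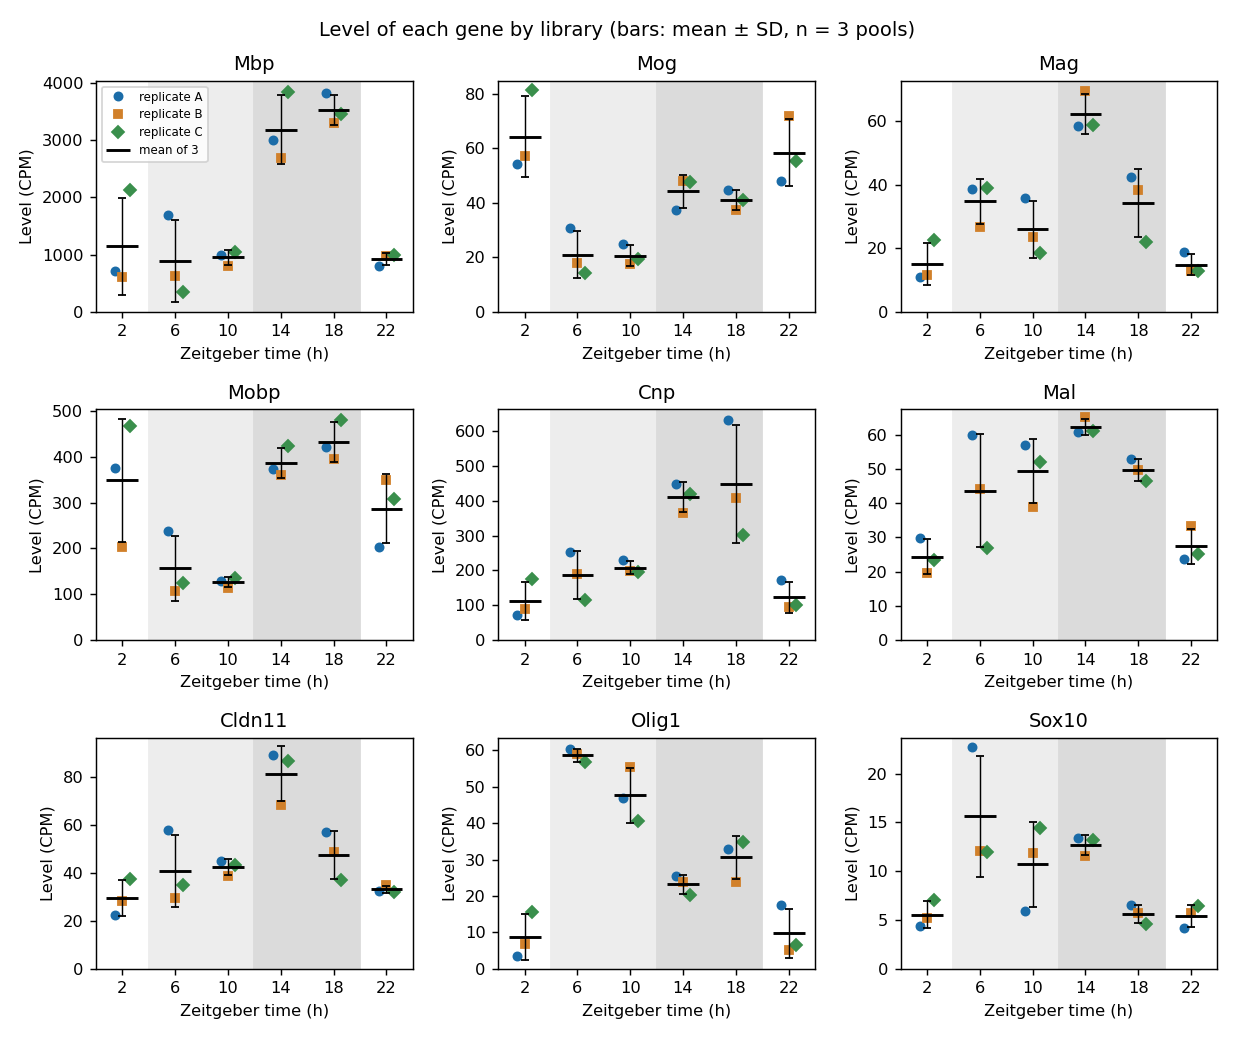
Level of each of the 9 genes in CPM (linear axis from 0) by zeitgeber time; points are the replicates A, B and C, the bars the mean ± SD of 3 pools, and the shading marks ZT6 with ZT10 and ZT14 with ZT18. Mbp is at 2690 CPM or more in all 6 libraries of ZT14 and ZT18 and at 2121 or less in the others, while Olig1 is highest at ZT6 and Mog at ZT2.

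Mbp, which had the largest share of the reads of the 9, had 3001, 2690 and 3844 CPM at ZT14 and 3811, 3297 and 3446 CPM at ZT18 in replicates A, B and C. It had 710, 610 and 2121 CPM at ZT2, 1690, 624 and 347 at ZT6, 996, 806 and 1051 at ZT10, and 806, 981 and 988 at ZT22. All 6 libraries of ZT14 and ZT18 were above all 12 others, and at ZT2 and ZT6 1 library of 3, ZT2 replicate C and ZT6 replicate A, stood far above its partners. The mean at ZT18 was 3518 ± 264 CPM (SD, n = 3) against 887 ± 709 at ZT6, 3.97-fold or 1.99 on the log2 scale (adjusted p = 0.00111, edgeR). Without ZT6 replicate A the difference between the highest and the lowest timepoint of Mbp was 2.86 on the log2 scale.

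Cnp encodes a phosphodiesterase of uncompacted myelin and lies on chromosome 11 from 100574904 to 100591729. It had 447, 365 and 419 CPM at ZT14 and 632, 408 and 301 at ZT18. At the other timepoints it had 72.6, 90.5 and 175.6 CPM (ZT2), 254, 191 and 116 (ZT6), 229, 199 and 194 (ZT10) and 173.9, 95.5 and 100.8 (ZT22). As for Mbp, every ZT14 and ZT18 library was above every other, but ZT6 and ZT10 were above most libraries of ZT2 and ZT22. Its exons share 154 bases with Dnajc7 on the other strand, and the kit does not mark strand, so reads there cannot be assigned to either.

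Mag, Cldn11 and Mal formed a further group with the highest mean at ZT14. Mag, a sialic acid binding adhesion molecule that faces the axon (chromosome 7, 30899176 to 30914873), had 58.4, 69.5 and 58.7 CPM at ZT14 and 42.4, 38.2 and 22 at ZT18, against 18.7, 12.9 and 12.8 at ZT22 and 10.9, 11.7 and 22.5 at ZT2. Its ZT6 libraries, with 38.7, 26.7 and 39 CPM, and its ZT10 libraries, with 35.9, 23.4 and 18.5, overlapped those of ZT18, and ZT10 replicate C lay within the range of ZT2 and ZT22. Mean levels were 62.2 ± 6.32 at ZT14 and 14.8 ± 3.39 at ZT22 (4.2-fold or 2.07 on the log2 scale, adjusted p = 0.000228, edgeR). With a correction for GC content (below) that difference of Mag was 1.12 (adjusted p = 0.00949).

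Cldn11, the tight junction protein that seals myelin (chromosome 3, 31149920 to 31164324), had 89.2, 68.5 and 86.8 CPM at ZT14, above all other libraries. It was lowest at ZT2, with 22.5, 28.4 and 37.5 CPM, and stood at 57, 48.9 and 37 CPM at ZT18. Mal, a proteolipid of membrane sorting (chromosome 2, 127633226 to 127656695), had 60.9, 65 and 60.9 CPM at ZT14 and 30, 19.8 and 23.5 at ZT2. Mal varied least of the 9 between timepoints (1.35 on the log2 scale, adjusted p = 0.0015, edgeR), and its ZT6 libraries spread over 59.8, 44.1 and 27.1 CPM.

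Mog and Mobp had their lowest levels at ZT6 and ZT10. Mog, an immunoglobulin-like protein of the outermost myelin (chromosome 17, 37010743 to 37023398), had 30.7, 17.9 and 14.3 CPM at ZT6 and 25, 17.6 and 19.3 at ZT10. It had 54.1, 57.2 and 81.3 CPM at ZT2 and 47.9, 72 and 55.4 at ZT22, with 37.3, 48 and 47.6 at ZT14 and 44.7, 37.5 and 40.9 at ZT18. Mog was thus the 1 gene of the 9 with its highest mean at ZT2 (64.2 ± 14.9 CPM against 20.7 ± 3.89 at ZT10, adjusted p = 0.000144, edgeR), where Cnp, Mal, Cldn11 and Olig1 had their lowest.

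Mobp (chromosome 9, 120149707 to 120181484) had 239, 108 and 124 CPM at ZT6 and 130, 115 and 136 at ZT10. It had 421, 394 and 480 CPM at ZT18, 373, 361 and 423 at ZT14, 376, 203 and 467 at ZT2, and 203, 349 and 307 at ZT22. No library of ZT14 or ZT18 overlapped those of ZT6 or ZT10, whereas those of ZT2 and ZT22 spread from 203 to 467 CPM and overlapped both groups.

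The transcription factors had yet another order. Olig1 (chromosome 16, 91269772 to 91271933) had 60.3, 58.9 and 56.7 CPM in the ZT6 libraries and 46.9, 55.5 and 40.4 in those of ZT10. It had 25.5, 23.8 and 20.2 CPM at ZT14 and 33, 23.9 and 34.8 at ZT18. At ZT2 it had 3.45, 6.76 and 15.7 CPM and at ZT22 17.5, 5.29 and 6.59. The 3 sets of libraries did not overlap for Olig1, and its step from ZT2 to ZT6 was 2.76 ± 0.46 on the log2 scale (SE). That step of Olig1 was 3.47 without ZT2 replicate C and 1.32 with GC correction (adjusted p = 0.017, edgeR). Its exons share 157 bases with the noncoding gene Gm15966 on the other strand.

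Sox10 (chromosome 15, 79154908 to 79165240) was the least abundant, with 22.7, 12.1 and 12 CPM in the ZT6 libraries. It had 5.87, 11.8 and 14.4 CPM at ZT10, while ZT14 gave 13.4, 11.5 and 13.2. It had 6.49, 5.72 and 4.64 CPM at ZT18, 4.2, 5.73 and 6.42 at ZT22, and 4.35, 5.25 and 7.05 at ZT2. Sox10 was therefore low in both ZT18 and ZT22, and 1 library of ZT10 lay with the low ones. All 9 genes were also called cycling with a 24 h period (time test as above and JTK_CYCLE, an exact rank test against cosine curves), against 29.8% of all genes tested. The JTK_CYCLE p, adjusted over the 6 peak times tried but not over genes, ran from 0.000147 for Mal to 0.0239 for Sox10. The best-fitting peak was ZT14 for Mag, Cnp, Mal and Cldn11, ZT18 for Mbp and Mobp, ZT22 for Mog and ZT10 for Olig1 and Sox10. With a correction for GC content (below) 5 of the 9 were called cycling. The share of all genes called cycling with that correction is not given here, so this count has no background beside it.

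Steps inside the sets of libraries came first. Between ZT6 and ZT10, 0 of the 9 genes differed by edgeR or DESeq2 (0.0475% of all genes differed by edgeR), 0 had an unadjusted p under 0.05, and the differences lay between -0.54 (Sox10) and 0.17 (Mal) on the log2 scale. Between ZT22 and ZT2, 0 of 9 differed by either tool (0.0317% of all genes by edgeR), 0 had an unadjusted p under 0.05, and the differences lay between -0.17 and 0.31. Between ZT14 and ZT18, 0 of 9 differed by edgeR (0.570% of all genes). There, 3 of the 9 had an unadjusted p under 0.05, all with lower values at ZT18. These were Sox10 at -1.17 ± 0.38 (SE), Mag at -0.86 ± 0.32 and Cldn11 at -0.77 ± 0.25, with adjusted p of 0.159, 0.232 and 0.154. Of the 18941 genes tested, 2564 had an unadjusted p under 0.05 at this step (edgeR). Between ZT6 and ZT10 2042 did, and between ZT22 and ZT2 680 did. From ZT14 to ZT18 DESeq2 called Sox10 and Cldn11 lower (adjusted p = 0.0337 and 0.0458), where it called 4.45% of all genes.

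The steps across the sets divided the 9 genes. From ZT2 to ZT6, 6 of 9 differed (33.8% of all genes): Olig1, Sox10, Mag and Mal were higher at ZT6 by 2.76 ± 0.46, 1.49 ± 0.38, 1.21 ± 0.33 and 0.84 ± 0.25 on the log2 scale, and Mog and Mobp were lower by 1.61 ± 0.27 and 1.15 ± 0.3 (log2 differences of -1.61 and -1.15, 17.5% of all genes being higher and 16.3% lower, adjusted p from 0.000169 to 0.0156, edgeR). Calls in both directions thus stood among the 9 genes at this step, which lies across the sets. The cause was not tested. The call for Mal was lost without ZT2 replicate B, ZT2 replicate C or ZT6 replicate A, and Mbp, at -0.37 ± 0.45, was called lower at ZT6 once ZT6 replicate A was left out (-1.24, adjusted p = 0.0277). With GC correction Mag was not called (adjusted p = 0.0898) and the value of Sox10 turned to -0.24 (adjusted p = 0.642), while Cnp and Cldn11 were called higher at ZT6 (0.74 and 0.79, adjusted p = 0.028 and 0.00936).

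From ZT10 to ZT14, 5 of 9 differed (16.8% of all genes, 9.31% being higher), each higher at ZT14: Mbp by 1.74 ± 0.47, Mobp by 1.61 ± 0.3, Mag by 1.26 ± 0.32, Mog by 1.1 ± 0.27 and Cldn11 by 0.94 ± 0.25 on the log2 scale (SE; adjusted p from 0.00135 to 0.015, edgeR). The median of the 9 was 0.98, against 0.12 over all genes. Olig1 had the opposite sign, -1.04 ± 0.44 (adjusted p = 0.115). Without ZT10 replicate B 2 of 9 were called, with Mbp, Mag and Cldn11 lost, and without ZT14 replicate C 3 were, with Mbp and Cldn11 lost.

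From ZT18 to ZT22, 5 of 9 differed (18.1% of all genes, 11.9% being lower), each lower at ZT22: Mbp by -1.93 ± 0.47, Cnp by -1.86 ± 0.35, Olig1 by -1.64 ± 0.45, Mag by -1.21 ± 0.32 and Mal by -0.85 ± 0.25 (log2 difference, SE; adjusted p from 0.00108 to 0.0242, edgeR). Mog had the opposite sign, 0.51 ± 0.26 (adjusted p = 0.201), and its replicates at ZT22 lay above those at ZT18 without overlap. The median of the 9 was -0.85, against -0.04 over all genes. The number called fell to 3 without ZT18 replicate A or without ZT22 replicate B and to 2, Mbp and Cnp, without ZT22 replicate C. With GC correction the calls for Olig1 (-0.71, adjusted p = 0.249) and Mag (-0.54, adjusted p = 0.199) were lost and Cldn11 was gained (-0.66, adjusted p = 0.0451).

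**Figure D2:**
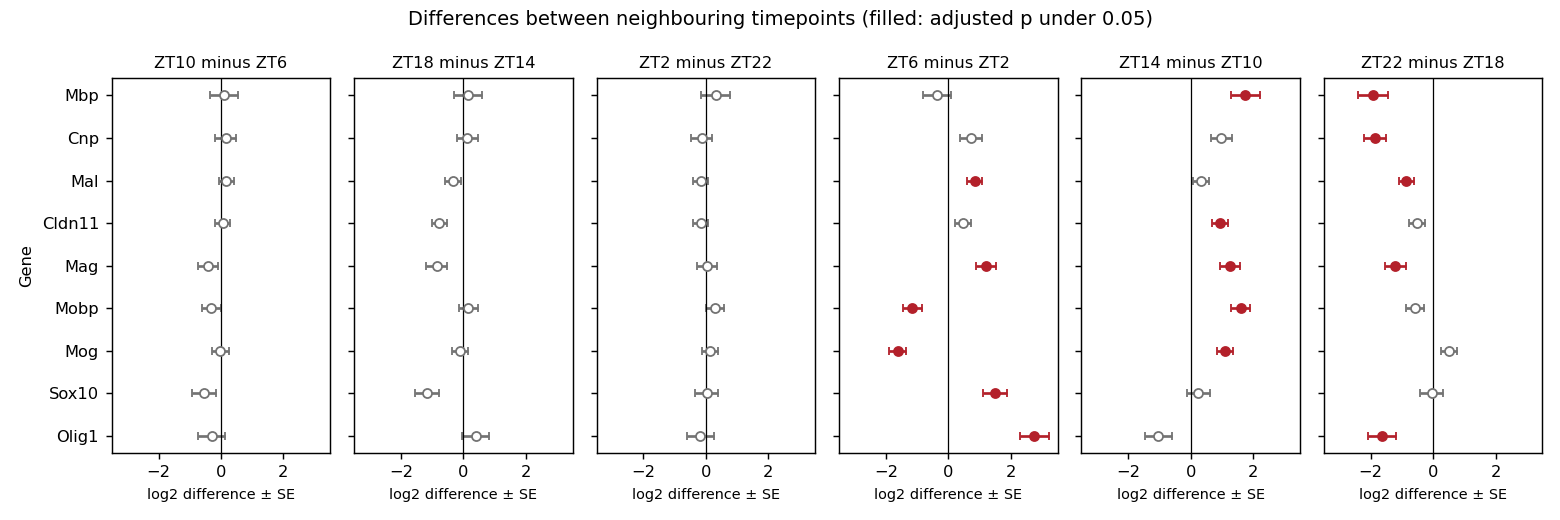
Log2 difference (± SE) of each of the 9 genes between neighbouring timepoints, with the 3 comparisons inside a set of libraries on the left and the 3 across sets on the right; filled red points have an adjusted p under 0.05 (edgeR). No point is filled on the left, and on the right Mog and Mobp lie on the other side of 0 from Mag, Mal, Sox10 and Olig1 in ZT6 minus ZT2.

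How much of this was a common shift was described by splitting the squared deviations of the 9 genes from their own means, on the log2 scale, into the part carried by the mean of the 9 in each library and the rest. Between timepoints, which held 80.8% of the total, the common part was 36.8%. Among replicates of a timepoint, which held 19.2%, it was 45.2%. The common part was 38.4% over all libraries, and 53.2% for the 7 myelin genes without Olig1 and Sox10. The same split gave 21.6% for 19 other genes of mature oligodendrocytes with at least 10 reads in every library and 46.1% for 10 astrocyte genes, so the share depends on the list and on its size.

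The pairwise correlations over libraries give the same picture as a description. Over the 36 pairs of the 9 genes and the 18 libraries, Pearson's r of log2 CPM ran from -0.78 to 0.86 with a median of 0.54, and 8 pairs were negative. Over the 6 timepoint means 10 of 36 pairs were negative, and over deviations from the timepoint means 4 were (median r of 0.48). All points share library, depth and scaling.

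**Figure D3:**
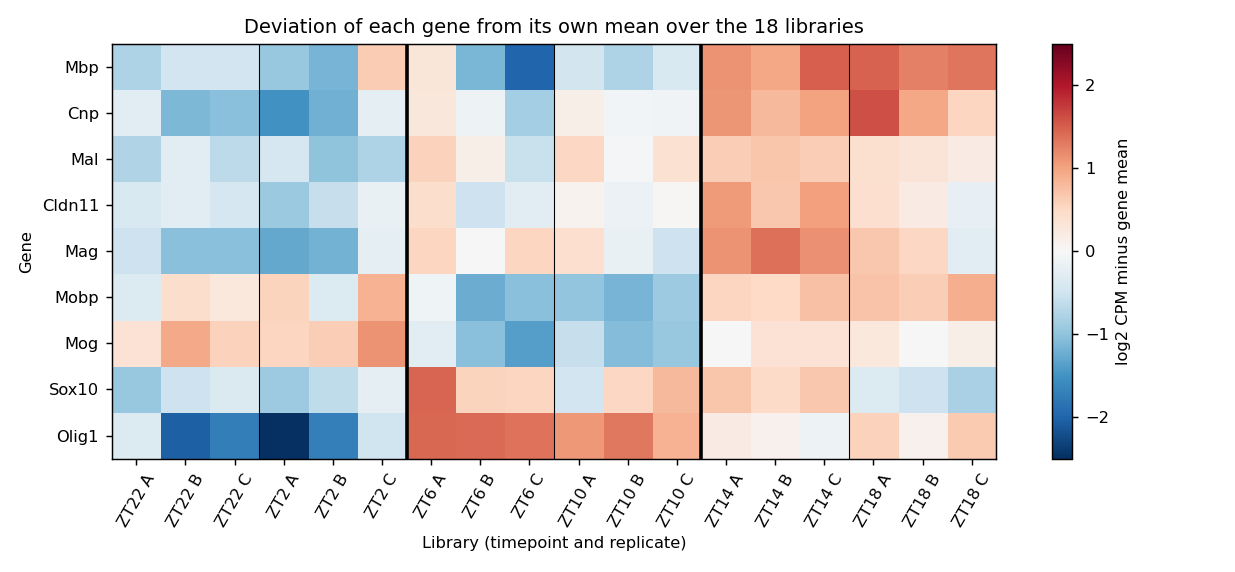
Log2 CPM of each of the 9 genes minus its mean over the 18 libraries (blue below, red above), with libraries ordered by set and thick lines between the sets. ZT14 and ZT18 are above the mean for most genes, while Olig1 with Sox10 and Mog with Mobp take opposite colours at ZT6 and ZT10, except for Sox10 in ZT10 replicate A.

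By library, the 9 genes did shift together in places. In ZT2 replicate C, 8 of the 9 were the highest of the 3 replicates, Mal being the exception, and their mean deviation was 0.05 on the log2 scale against -0.84 and -0.8 in replicates A and B. In ZT6 replicate A, 8 of 9 were the highest, with Mag the exception by 38.7 against 39 CPM, and the mean deviation was 0.52 against -0.22 and -0.41. ZT18 replicate A was highest for 7 of 9. At ZT10, ZT14 and ZT22 no library was highest for more than 5 of the 9. How many of all genes were highest in the same libraries is not given here, so these counts have no background.

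Genes of the same cells that are not among the 9 followed in part. Of 19 other genes of mature oligodendrocytes, 13 were highest in ZT22 replicate B, 11 in ZT10 replicate A and 11 in ZT14 replicate A. In those libraries 4, 5 and 4 of the 9 genes were highest. Of the same 19, 12 were highest in ZT2 replicate C, 15 in ZT6 replicate A and 14 in ZT18 replicate A. Markers of other cells differed there as well: in ZT6 replicate A the summed levels of the astrocyte, microglia, endothelial and general neuron lists were the highest of the 3 replicates (4257 against 3738 and 3103 CPM for astrocytes) and the SCN neuron list the lowest (5184 against 5767 and 5836). In ZT2 replicate C the astrocyte list (7558 against 9073 and 7900 CPM), the endothelial list (158 against 279 and 251) and the SCN neuron list (3269 against 4180 and 4806) were the lowest, although Gfap, an intermediate filament of astrocytes, stood at 264 against 70.5 and 112.8 CPM. There the summed level of the further genes of mature oligodendrocytes was 3673 against 3827 and 3676 CPM. The part of these lists in the levels of the 9 genes was not tested. Without both libraries together, 9 of 9 genes were still called changed with time.

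Across the sets, the other lists took other courses than the 9. The astrocyte list summed to 7558 to 9073 CPM at ZT2 and 6932 to 8029 at ZT22, and to 3103 to 4257 at ZT6 and ZT10, with ZT14 and ZT18 between at 4475 to 6130. The summed level of the 9 genes was highest at ZT14 and ZT18, 3702 to 5101 CPM, and Mbp made up 45% to 78.1% of it. The SCN neuron list was highest at ZT6 (5184 to 5836 CPM), with 1804 to 2407 at ZT14. The timepoints with the highest summed astrocyte level were thus not those with the highest summed level of the 9. In the SCN neuron list 9 of 10 genes changed with time, as did 9 of 10 in the astrocyte list (44.0% of all genes). These sums can change with the level of the genes in each cell and are not a measure of cell share. Single astrocyte genes differed among themselves: Aqp4, the astrocyte water channel, had 373, 330 and 223 CPM at ZT2 against 151, 125 and 130 at ZT18, whereas Gfap had 70.5, 112.8 and 264 at ZT2 against 552, 400 and 424 at ZT18.

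Whether a gene changed apart from the rest was tested by fitting each of the 9 relative to the geometric mean of the other 8 in the same library. In this test 7 of the 9 changed with time, where 53.2% to 58.9% of all genes did against the same references. Each gene also enters the reference of the others, so the 9 tests are not independent. Opposite signs among the relative levels are built into this measure. Mog lay 1.45 above its average relative level at ZT2 and at -0.99 at ZT6 (log2 scale, adjusted p = 1.01e-07, edgeR), and Mobp lay at 1.04 at ZT2 and -1.06 at ZT10 (adjusted p = 9.59e-06). Olig1 went the other way, with -1.19 at ZT2 and 1.59 at ZT6 (adjusted p = 2.01e-05). Mbp lay at -0.93 at ZT6 and 1 at ZT18 (adjusted p = 0.000354), Sox10 at 0.97 at ZT6 and -1.15 at ZT18 (adjusted p = 0.00526), and Cnp at -0.52 at ZT2 and 0.69 at ZT18 (adjusted p = 0.00617).

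Mag passed narrowly (adjusted p = 0.0428) and held in 8 of the 18 fits that left out 1 library. Cldn11 and Mal did not pass (adjusted p = 0.392 and 0.474), with relative levels within -0.33 to 0.23 and -0.17 to 0.41 on the log2 scale. A missed threshold does not show that these followed the rest: relative to the 19 other genes of mature oligodendrocytes all 9 changed, Cldn11 and Mal included (adjusted p = 0.00142 and 0.000112), where 42.4% of all genes did. Mbp, Mog, Mobp, Olig1 and Sox10 were called under each reference tried that could hold them, with the replicate block and with GC correction. The calls held, but not always the timepoints. With GC correction the relative level of Sox10 was highest at ZT2 instead of ZT6, and that of Olig1 lowest at ZT14 instead of ZT2. Relative to the 19 other genes Mobp was highest at ZT18 instead of ZT2, and Mbp and Sox10 were lowest at ZT22 instead of ZT6 and ZT18. Mog was highest at ZT2 under each reference, but its lowest timepoint depended on the reference. It was ZT6 against the other 8 and ZT10 against the 19 genes. With summed counts of the others it was ZT18, and against the other myelin genes alone ZT14.

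**Figure D4:**
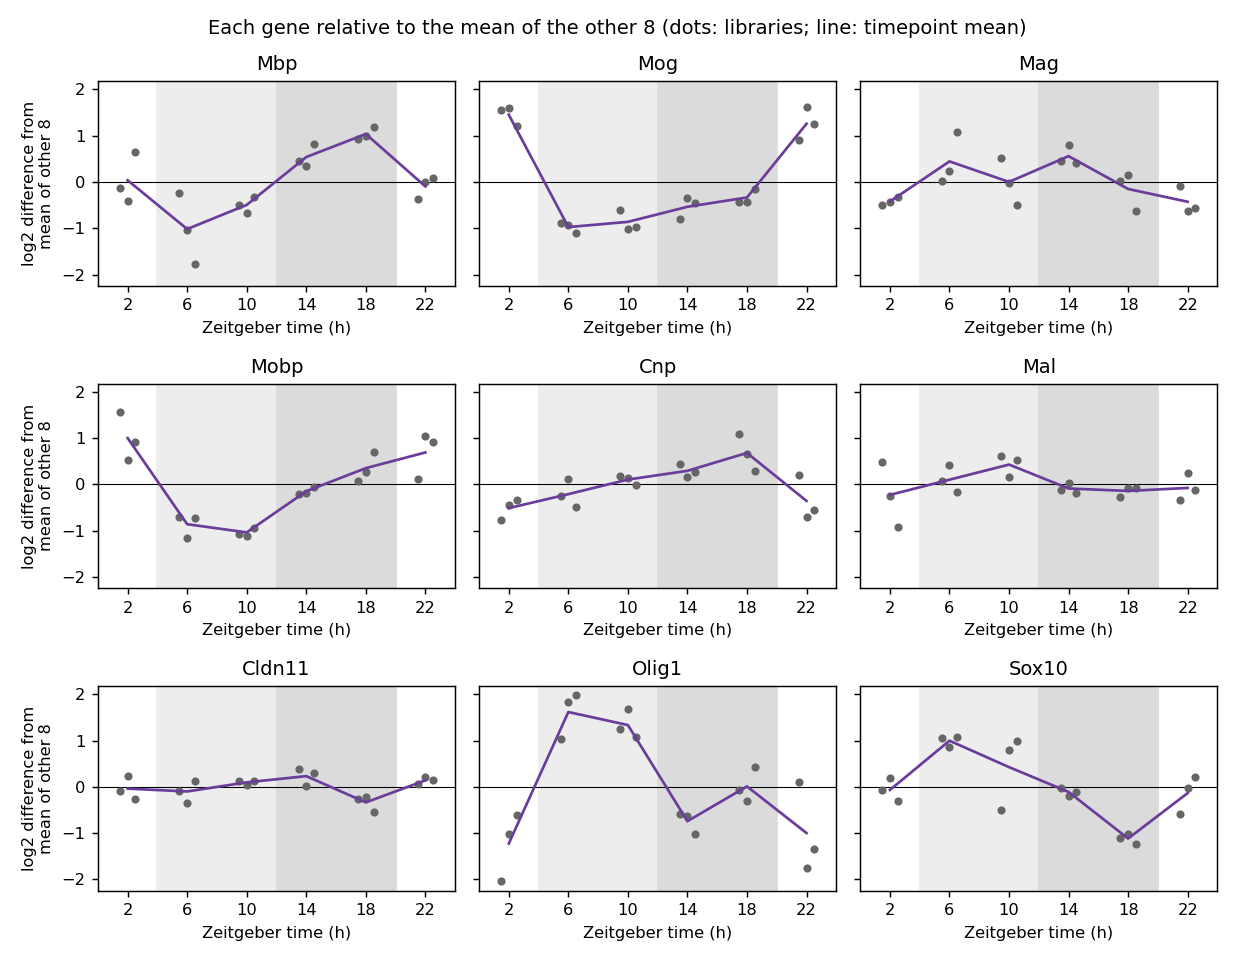
Log2 level of each of the 9 genes minus the mean of the other 8, by zeitgeber time; dots are libraries, the line the timepoint mean, and the shading marks ZT6 with ZT10 and ZT14 with ZT18. The timepoint means of Mog and Mobp are highest at ZT2 and ZT22 and those of Olig1 at ZT6 and ZT10.

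The 9 genes differ in base composition, and the sets of libraries differ in it too. The median deviation (log2) was taken over all genes with a mean of at least 10 reads. Those with a GC content of 60% or more had -1.04 at ZT2, 0.63 at ZT6 and 0.64 at ZT10, while those of 45% to 50% had 0.2, -0.19 and -0.09. The genes of 60% or more were also high at ZT14 (0.53) and low at ZT22 (-0.73), where those of 45% to 50% had 0.07 and 0.2. Olig1 and Sox10, with 61.1% and 61.8% GC in the longest transcript, were 1.87 and 0.85 higher at ZT6 and ZT10 than at the other timepoints, against a median of 0.92 for all genes of 60% or more. Mag (57.6%) was 0.2 higher against 0.22 for genes of 55% to 60%. The median of those genes was highest at ZT14 (0.51) and lowest at ZT2 (-0.51), with ZT22 next lowest (-0.28). Mag too had its highest mean at ZT14 and its lowest means at ZT22 and ZT2. Mbp, Mog and Mobp (50% to 53.3%) were lower by -1.11, -1.32 and -1.36, against a median of -0.22 for genes of 50% to 55%, with Mog and Mobp near the 10th percentile of those genes (-1.49). Sox10 and Mag thus lay near the median of genes of like GC content. Mog, Mobp, Mbp and Olig1 lay away from it, but inside the 10th to 90th percentile (-1.49 to 1.02, and -0.3 to 2.13 for Olig1). Cnp and Cldn11 were at -0.17 and -0.1 against a median of -0.22, and Mal at 0.25 against -0.25.

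With a per-library correction for GC content, 8 of the 9 still changed with time (41.1% of all genes did). Sox10 did not (adjusted p = 0.0588), and its rise from ZT2 to ZT6 was gone, as given above.

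**Figure D5:**
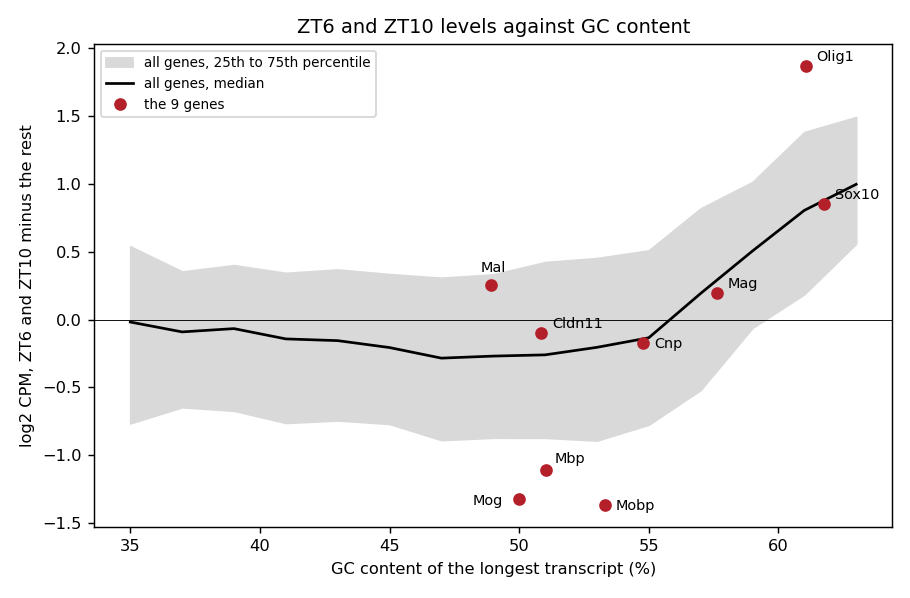
Mean log2 CPM at ZT6 and ZT10 minus the mean at the other timepoints, against the GC content of the longest transcript; the line is the median and the band the 25th to 75th percentile of all genes, and the points are the 9 genes. Sox10, Mag and Cnp lie on the median line, Olig1 above the band, and Mog, Mobp and Mbp below it.

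Other genes of the lineage, from lists chosen with these 9, moved in several directions. Of 25 further genes of mature oligodendrocytes and myelin, 15 changed with time (44.0% of all genes did, as given above), with the highest mean at ZT2 or ZT22 in 14 of the 25. Car2, carbonic anhydrase, had its highest mean at ZT22 (578 CPM) and its lowest at ZT6 (194), while Pllp, plasmolipin, was highest at ZT18 (45.2) and lowest at ZT22 (8.43). From ZT2 to ZT6, 4 of the 25 were higher and 8 lower, from ZT10 to ZT14 5 were higher and 0 lower, and from ZT18 to ZT22 2 were higher and 5 lower, against the percentages of all genes given above.

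Of 7 further transcription factors of the lineage, 4 changed, against the same 44.0% of all genes. Nkx6-2, a homeobox factor of mature oligodendrocytes, was highest at ZT6 (18 CPM) and lowest at ZT2 (1.59), with 64.3% GC, and Nkx2-2 had the same order (5.72 against 0.96 CPM). Tcf7l2, a Wnt effector of newly formed cells that neurons also express, had its highest mean at ZT18, with 157.8, 51.1 and 64.9 CPM in the 3 replicates, against 21.7, 24.5 and 24.7 at ZT2, so that 1 library stood far above the others. Of 11 genes of precursors and newly formed oligodendrocytes, 7 changed, again beside 44.0% of all genes: Pdgfra, the growth factor receptor of precursors, had 71.2 CPM at ZT2 against 16.7 at ZT6, and Gpr17, a receptor of cells that begin to differentiate, 75 at ZT14 against 16.4 at ZT6. Bcas1, a marker of cells that start to myelinate, had 79.2 CPM at ZT14 against 34.1 at ZT2.

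The genes most like the 9 over all libraries were mostly not oligodendrocyte genes. Among 12993 genes with a mean of at least 50 reads, those with the highest Pearson r with the mean standardised level of the 9 were R3hdm4 (0.96), Cend1 (0.93), Polrmt, Gna11, Zmiz2, Hk1, Ndrg4, Actr1b, Aacs and Adam11 (0.91), over 18 libraries. In this order Bcas1, of the list of newly formed oligodendrocytes, ranked 15th with r of 0.9. Gpr37, a receptor of myelinating cells, ranked 62nd with r of 0.86. Over deviations from the timepoint means, which the sets of libraries do not enter, the first 5 were Sept4 (0.91), R3hdm4 (0.89), Bcas1 (0.88), Ppil2 and Doc2a (0.86). Sept4 and Bcas1 are on the lists of mature and newly formed oligodendrocytes. Over the 38 genes of the lineage lists in this ranking, the median r was 0.25 over libraries and 0.22 over deviations from the timepoint means, against 0.02 and 0.11 over all genes.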

How the data were processed

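The authors amplified RNA of each pool (SMARTer, not stranded), sequenced it as paired reads, and per the submitters' processing notes used GSNAP, HTSeq 0.5.4p1 and DESeq2 with mm10/GRCm38. They deposited whole-number read counts per Ensembl gene, with the 3 lanes of each replicate combined in 1 column for 18 replicates, and a second table with the signal of counts divided by size factors, from which whole reads were recovered for 100% of values (within 0.01 reads); edgeR on these called 8646 genes changed with time, against 8343 on the count table. Symbols, exon lengths and GC content came from the GENCODE annotation of GRCm38.

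Genes were kept where over 6 replicates had at least 1 read (18941 genes), and their counts were TMM-scaled and tested with edgeR 4.0.16 (quasi-likelihood F-test, all 6 timepoints in 1 fit, no covariate), for any change with time and for the 6 steps between neighbouring timepoints, adjusted by Benjamini-Hochberg over all genes with a threshold of 0.05. For relative levels, the offset was the log geometric mean of the other 8 genes (counts plus 0.5). JTK_CYCLE was recomputed with its exact null distribution for a 24 h period and 6 lags. Its p was adjusted by Bonferroni over the lags, not over genes, with a threshold of 0.05. The paper gives a Bonferroni q under 0.05 for this test, so its calls may be stricter. GC correction added a per-library loess curve (span 0.3) to the offset. Both the fits and JTK_CYCLE were tested on simulated data. DESeq2, other scalings, filters, the recovered reads, a replicate block and leaving out each replicate were alternatives. GC correction and leaving out ZT2 replicate C with ZT6 replicate A were chosen after seeing the data.

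The 9 genes and the other lists were chosen with earlier results of these data known. Named besides the 9 were, of each list, at most the 3 genes with the smallest p of the time test and the 2 with the highest mean, the 10 and 5 genes most like the 9, and cell type markers; Gpr37 was named after its values were seen. Myrf, Lhfpl3 and Map2 are not analysed here. Some other genes of the lists, though counted in them, are not reported here by name. Replicates are pools of 5 mice, and p-values measure the spread between pools. The fewest reads of any of the 9 genes in a library was 61.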

Additional observations from a re-analysis of the deposited data

How the results depend on the processing

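The count of 9 of 9 genes changed with time held without any single replicate and under each alternative except GC correction, which left 8 (Sox10 lost, adjusted p = 0.0588). The counts of steps called ranged, without 1 replicate, from 5 to 7 for ZT6 minus ZT2, 2 to 7 for ZT14 minus ZT10, 2 to 5 for ZT22 minus ZT18 and 8 to 9 for genes called cycling, and the relative test called 6 to 7 of 9. GC correction left 5 cycling, a count without the share of all genes beside it. It moved the median difference of the 9 genes from 0.98 to 0.71 (ZT14 minus ZT10) and from -0.11 to 0.093 (ZT18 minus ZT14), and turned ZT6 minus ZT2 of Sox10 to -0.24. That median for ZT14 minus ZT10 was 0.83 with upper-quartile scaling and 0.77 on recovered reads. DESeq2 called 2 genes for ZT18 minus ZT14. The common part of the variance, 38.4%, was 34.5% with DESeq2 size factors, 31.4% with upper-quartile scaling, 26.7% with GC correction, 34.8% without ZT2 replicate C and ZT6 replicate A, and 35.5% to 41.1% without 1 replicate. The cause of these shifts was not tested.

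In the relative test Mag was lost on recovered reads (adjusted p = 0.0582) and with GC correction (0.266), and Cnp with summed counts of the others (0.0705) or their level as a covariate (0.116). Cldn11 and Mal were gained with summed counts (0.015 and 0.00353) and with GC correction (0.0207 and 0.00382).

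Replicate letters did not pair the libraries: deviations of libraries with the same letter correlated by a median r of -0.003 over 45 pairs, and 1 pair was over 0.1. With the letter as a replicate block 9 of 9 genes changed with time, the relative test called 6 with Mag lost (adjusted p = 0.0606), and no other call listed here changed.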
